A study of Mus musculus with 25 samples.

Results

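Rightward joins within the Ter array were taken from all 10 deposited junction tables as every listed junction on the plus strand at cassette positions 3025 to 3258. There were 521 such joins among 11867 listed junctions, and 514 of them came from the 8 groups of cells that received Tus. The members were chosen by position and orientation alone. A rightward join is a bait end joined to array DNA that ran on past the array toward higher cassette positions. A leftward join is a bait end joined to array DNA that ran back toward position 1.

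Tus is a bacterial protein that binds a short DNA element called Ter and stops a replication fork that meets the bound element. When Ter elements are placed in a mammalian chromosome and Tus is supplied, forks stall at that site, and DNA ends that arise there can be joined to another broken end. BRCA1 acts in homologous recombination and in the repair of stalled forks, BLM is a RecQ helicase that unwinds recombination intermediates, and FANCM is a DNA translocase that remodels stalled forks. Where bait and joined DNA carry the same few bases at their ends and these appear only a single time in the product, the shared bases are called microhomology. A join with no shared and no added base is blunt, and bases that belong to neither side are an insertion.

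The joins were mapped in mouse embryonic stem cells by LAM-HTGTS, a translocation sequencing assay that starts linear amplification at the end of a Cas9 cut (the bait) and reads what that end was joined to. The bait cut lay 30 kb from a 4 kb reporter cassette that carries the Ter array, inserted at the ROSA26 locus, and DNA was collected 48 h after transfection. Tus was given with an siRNA against luciferase (the control), BLM, BRCA1 or FANCM, in cells of genotype BRCA1del/exon11 (3 libraries for each siRNA) or BRCA1flox/exon11 (3 libraries for FANCM and 2 for each other siRNA). In BRCA1del/exon11 cells with the FANCM siRNA, I-SceI, a nuclease that cuts beside the array, or a control labelled EV took the place of Tus, with 2 libraries each. Every group carried the allele written exon11, the reporter and the Cas9 bait cut, so the control group too had a broken bait end. The genotypes are called BRCA1del and BRCA1flox here. Neither the extent of each knockdown nor whether a genotype was a single clone is given in the sources used here.

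Libraries of a group were pooled in 1 table, and each of 4 sequencing runs, called A to D, was read as 1 library of the groups it held. The 25 libraries held 148 to 933 junctions each. Nothing in the labels says that libraries of a group were separate cultures, so a p-value over libraries reflects how far these libraries spread, and that spread may be technical. Runs C and D carried the same barcode in each of the 8 Tus groups. Even so, at most 2.58% of the joins of run D were also listed in run C of the same group (mean 1.59%), against a mean of 1.26% for run C of other groups.

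The array is a pair of repeats of 117 bp, each with 3 Ter elements of 23 bp in the same orientation. Ter 1 to 3 began at cassette positions 3048, 3076 and 3104 and Ter 4 to 6 at 3166, 3194 and 3222. The repeat is shown with its 3 Ter elements in capitals, followed by the element itself and the last 40 bases of the intact bait end.
repeat: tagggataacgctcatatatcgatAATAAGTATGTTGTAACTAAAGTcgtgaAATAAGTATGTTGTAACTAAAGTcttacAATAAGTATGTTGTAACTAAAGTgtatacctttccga
Ter element: AATAAGTATGTTGTAACTAAAGT
bait end: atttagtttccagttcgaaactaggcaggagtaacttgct

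In the rightward direction, 3 runs of at least 4 bases are shared by the bait end and the Ter element, and are given here because the microhomology joins below refer to them. GTAACT is found at bases 13 to 18 of Ter and ends 4 bases before the end of the bait. AGTA is found at bases 5 to 8 of Ter and ends 7 bases before the bait end, and AACTA at bases 15 to 19 of Ter and 17 bases before the bait end.

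An example of each kind of join shows what was read. For each kind, it was the join placed past the array whose position and bait end recurred in the most libraries. Each is printed from the bait into the array, with 25 bases of bait before the junction and 35 bases of array DNA after it. Capitals mark the shared bases in the microhomology example and the inserted base in the insertion example.
blunt: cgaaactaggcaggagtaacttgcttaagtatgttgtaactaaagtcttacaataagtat
microhomology: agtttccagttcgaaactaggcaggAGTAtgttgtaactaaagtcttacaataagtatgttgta
insertion: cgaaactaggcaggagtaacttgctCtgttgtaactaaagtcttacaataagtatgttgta
The blunt join used the complete bait end and began at position 3196, base 3 of Ter 5, in 3 libraries. The microhomology join began at position 3198, base 5 of Ter 5, with 7 bases lost from the bait and 4 bases shared, in 6 libraries. The insertion join began at position 3202, base 9 of Ter 5, with the complete bait end, and was seen in 2 libraries with inserts that differed, of 1 base in the read shown and 19 bases in the other.

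The first comparison asked how often array joins ran rightward in each genotype and with each siRNA. Rightward joins made up a larger share of array joins in BRCA1del than in BRCA1flox cells. Shares are of all joins of either orientation at positions 3025 to 3258 in a library. Because a share has leftward joins in its denominator, it does not tell more rightward joins from fewer leftward ones.

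With the luciferase siRNA, BRCA1flox cells gave the lowest shares, 1.64% in run C (8 of 489 joins) and 1.29% in run D (2 of 155). BRCA1del cells with the same siRNA gave 10.4% in run B (34 of 326), 7.78% in run C (21 of 270) and 13.8% in run D (22 of 160). All 3 BRCA1del libraries lay above both BRCA1flox libraries.

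With the BLM siRNA, BRCA1del cells gave 18.3% in run B (65 of 356), 14.8% in run C (42 of 284) and 16.5% in run D (13 of 79). BRCA1flox cells gave 8.70% in run C (24 of 276) and 7.69% in run D (11 of 143). Here too the genotypes did not overlap, and all 5 libraries lay above every luciferase library of their own genotype.

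With the BRCA1 siRNA, the BRCA1del shares were 11.2% in run B (30 of 268), 17.9% in run C (47 of 263) and 16.7% in run D (17 of 102). The BRCA1flox shares were 8.01% in run C (25 of 312) and 11.1% in run D (14 of 126). The highest BRCA1flox library lay just below the lowest BRCA1del library.

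With the FANCM siRNA, the libraries of a genotype spread widely and the genotypes overlapped. BRCA1del cells gave 18.2% in run A (62 of 341) but only 6.23% in run C (17 of 273) and 4.23% in run D (3 of 71). BRCA1flox cells gave 12.1% in run B (36 of 297), 4.31% in run C (10 of 232) and 9.73% in run D (11 of 113). The BRCA1del library of run A held most of the members of its group, and no BRCA1flox library came from that run.

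**Figure D1:**
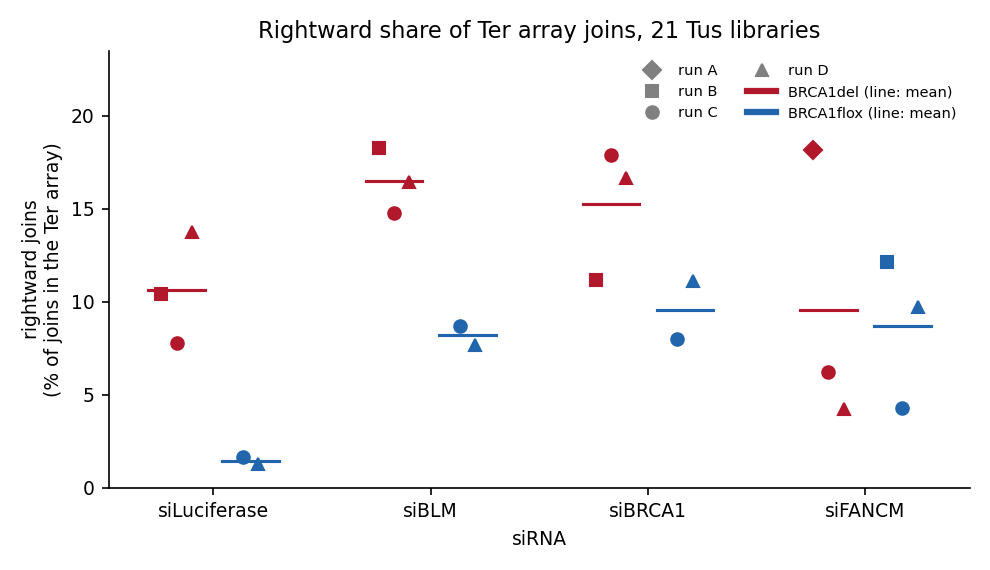
Rightward joins as a percentage of all Ter array joins (vertical axis) in each of the 21 Tus libraries, by siRNA (horizontal axis) and genotype (colour); marker shapes are sequencing runs and short lines are group means. The BRCA1flox libraries with the luciferase siRNA, at 1.64% and 1.29%, are the lowest, and the genotypes overlap with the FANCM siRNA alone.

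Pooled over libraries, the rightward share in BRCA1del cells was 16.7% with the BLM siRNA (120 of 719 joins, Wilson 95% interval 14.1 to 19.6) and 14.8% with the BRCA1 siRNA (94 of 633, 12.3 to 17.8). It was 11.97% with the FANCM siRNA (82 of 685, 9.75 to 14.6) and 10.2% with the luciferase siRNA (77 of 756, 8.23 to 12.5). In BRCA1flox cells it was 8.35% with the BLM siRNA (35 of 419, 6.07 to 11.4), 8.90% with the BRCA1 siRNA (39 of 438, 6.58 to 11.9), 8.88% with the FANCM siRNA (57 of 642, 6.92 to 11.3) and 1.55% with the luciferase siRNA (10 of 644, 0.846 to 2.83). These intervals cover counting error only, since amplified reads are not independent molecules.

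Averaged over the 4 siRNAs, the rightward share was 12.99% in BRCA1del and 6.99% in BRCA1flox libraries. The difference of 6.0 percentage points passed an exact permutation test that exchanged libraries between genotypes within each siRNA (two-sided p = 0.0043, 12 against 9 libraries). By siRNA, the difference was 9.19 points with luciferase, 8.31 with BLM, 5.68 with BRCA1 and 0.823 with FANCM. Within runs that held both genotypes, 7 of 8 pairs had the higher share in BRCA1del, with a mean difference of 5.66 points (two-sided exact sign-flip permutation p = 0.0234), and the pair that went the other way was run D with the FANCM siRNA.

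Each siRNA was also set against luciferase within the same genotype. The BLM siRNA gave a share 6.29 points higher on average (5.85 in BRCA1del and 6.73 in BRCA1flox). The BRCA1 siRNA gave a share 6.35 points higher (4.59 and 8.10). After Benjamini-Hochberg adjustment over the 3 siRNAs, both had an adjusted p of 0.05 in the exact two-sided permutation test, which is not below the threshold of 0.05, and the smallest unadjusted p that either design allows is 0.0167. Another count kept only rightward reads aligned past the right end of the array and leftward reads aligned past its left end. The orientations were thus filtered by different rules. The differences were then 3.21 and 4.69 points, each with an adjusted p of 0.025 by the same exact test. The FANCM siRNA differed by 3.08 points (adjusted p = 0.32, exact permutation test), from -1.11 in BRCA1del to 7.26 in BRCA1flox, and by 0.916 points without run A. The 3 siRNAs share the luciferase libraries, so their differences are not independent.

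In BRCA1del cells with the FANCM siRNA, I-SceI in place of Tus left few rightward joins in the array itself. There were 2 of 119 array joins in run A (1.68%) and 5 of 155 in run C (3.23%), and both lie below the 3 Tus libraries of the same cells. The I-SceI site lies just right of the counted region, so rightward joins that begin at that cut fall outside it. The difference from Tus was not tested. With the EV control there was no rightward array join among 468 listed junctions, and only 1 array join of either orientation. With a floor of 3 joins, this allows a share of up to 0.641% of all listed junctions, a wider base than array joins. On that base, I-SceI gave 7 of 1702 and Tus 82 of 1326 in the same cells. The limit treats listed junctions as independent.

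The next question was in which repeat and at which Ter element the rightward joins lay. The repeats are nearly identical, and an alignment places a read with certainty only where it reaches past the array, here to position 3296 or beyond. That rule placed 287 of the 514 members and put 263 of them (91.6%) in the second repeat, since a rightward read from the first repeat has to cross the whole second repeat to reach that position. For leftward reads the alignment had to reach past the left end of the array instead. This placed 3145 of 4422 leftward joins, 314 of them (9.98%) in the second repeat. The read's own sequence gives more. A read that crosses the end of the repeat shows whether another repeat or the sequence beyond the array follows. By this or the rule, 497 members (96.7%) were placed, 200 in the first repeat and 297 in the second (59.8%). Leftward array joins, placed the same way, lay in the second repeat in 1280 of 4289 cases (29.8%). The read's sequence could not place a rightward join in the last bases of the first repeat there. Such a read was counted in the second repeat if it ran past the array. A leftward join in the first bases of the second repeat was counted in the first, if at all. Both limits widen the difference between the orientations, by an amount not tested. Of rightward joins in the 14 bases after the third Ter, 33 were counted in the second repeat and 2 in the first.

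Within single libraries with at least 5 rightward joins, the second repeat held 25% to 75% of rightward joins (median 55.9%) and 13.4% to 40.6% of leftward joins (median 28.1%). The rightward share was the higher in 18 of 19 libraries. The exception was the BRCA1flox luciferase library of run C, with 8 rightward joins. The mean difference of 28.6 points passed a two-sided sign-flip permutation test over libraries (adjusted p = 4e-05, SD 15.6, n = 19). As placed, with the limits given above, rightward and leftward joins therefore differed in position along the array by more than the spread between libraries.

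By element, the rightward joins that were placed numbered 48 in Ter 1, 53 in Ter 2 and 68 in Ter 3 of the first repeat. They numbered 18 in Ter 4, 102 in Ter 5 and 116 in Ter 6 of the second repeat, and 92 lay between or beside the elements. The last element, Ter 6, thus held the most and Ter 4 the fewest. The leftward joins numbered 1136 in Ter 1, 740 in Ter 2, 280 in Ter 3, 492 in Ter 4, 336 in Ter 5 and 142 in Ter 6, so that within each repeat their number fell from the first element to the last.

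Folding both repeats onto 1 shows the same order with every member counted. The third Ter of the repeat held 193 rightward joins, or 8.39 per bp, the second held 157 (6.83 per bp) and the first held 68 (2.96 per bp). The 24 bases before the first Ter held 14 (0.583 per bp), the 5 bases between the first and the second Ter held 10, the 5 bases between the second and the third held 34 (6.80 per bp), and the 14 bases after the third held 38 (2.71 per bp). Leftward joins were densest in the first Ter (73.2 per bp) and thinnest in the 14 bases after the third (5.93 per bp).

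**Figure D2:**
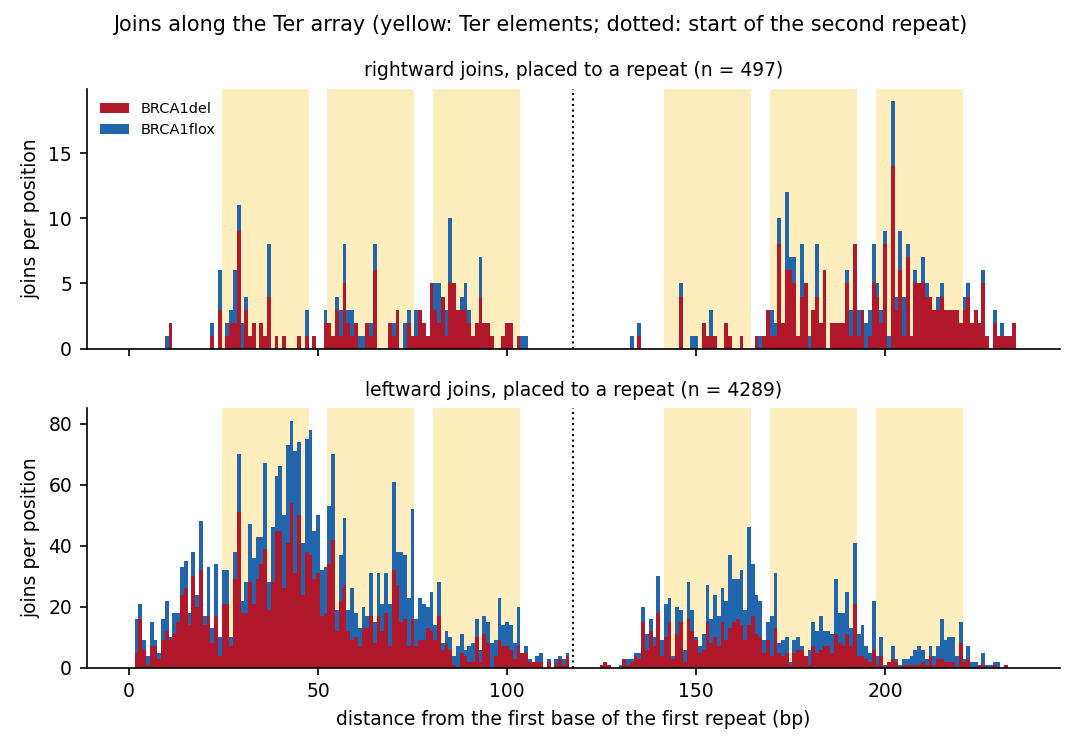
Number of joins (vertical axis) that begin at each distance in bp from the first base of the first repeat (horizontal axis), for rightward joins (upper, 497 placed) and leftward joins (lower, 4289 placed) of the 8 Tus groups, stacked by genotype. Yellow bands are the 6 Ter elements and the dotted line is the start of the second repeat; rightward joins pile up over Ter 5 and Ter 6, leftward joins over Ter 1.

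Rightward joins in BRCA1del cells lay in the second repeat more often than those in BRCA1flox cells. The shares were 49.2% to 75% in 11 BRCA1del libraries (median 65%) and 25% to 67.6% in 8 BRCA1flox libraries (median 54.4%), so that the ranges overlapped. Averaged over siRNAs, the means were 64.2% and 45.4%. The difference of 18.8 points passed the exact permutation test within siRNAs (two-sided p = 0.00075). It was 12.3 points with the BLM, 14.96 with the BRCA1, 14.3 with the FANCM and 33.5 with the luciferase siRNA. The luciferase value rested on 1 BRCA1flox library, run C, with 2 of 8 joins in the second repeat (25%). Run D of that group held 2 rightward joins, below the minimum of 5. Without that 1 library of run C, the genotype difference was 13.9 points. With all libraries, the genotype difference was positive in 6 of 6 pairs of libraries from the same run (mean 20.5 points, exact sign-flip p = 0.0313, the smallest possible). Without run C it was 10.04 points and did not pass (exact permutation p = 0.185). Restricted to reads placed by the alignment rule, where nearly every member is in the second repeat, it was -2.87 points (exact permutation p = 0.507). In the 14 bases after the third Ter, where joins of the first repeat can be miscounted, 28 BRCA1del joins were counted in the second repeat and 0 in the first. In BRCA1flox cells these counts were 5 and 2. How much of the genotype difference this makes up was not tested.

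Between siRNAs, pooled shares in the second repeat for BRCA1del cells ran from 53.8% with the BLM siRNA (63 of 117 placed joins, Wilson 95% interval 44.8 to 62.6) to 73.4% with the FANCM siRNA (58 of 79, 62.8 to 81.9). For BRCA1flox cells they ran from 30.0% with the luciferase siRNA (3 of 10, 10.8 to 60.3) to 63.0% with the FANCM siRNA (34 of 54, 49.6 to 74.6). The FANCM group was highest in both genotypes, which was not tested.

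Ter elements cover 59.0% of the repeat, and 418 of the 514 rightward joins (81.3%) began within an element, against 73.0% of leftward joins. The share within Ter was the higher for rightward joins in 14 of 19 libraries. The mean difference was 7.67 points (79.99% against 72.3%), which passed the sign-flip permutation test (two-sided p = 0.0031, SD 9.97, n = 19). Among reads placed by the alignment rule it was 2.79 points and did not pass (permutation p = 0.536).

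Rightward joins were spread over most of the repeat, with some positions used many times. They began at 90 of the 117 positions of the repeat, and the 10 most used positions held 167 of the 514 members (32.5%). The most used was position 85 of the repeat, base 5 of the third Ter, with 31 members from 16 libraries. Position 57, base 5 of the second Ter, held 20 members from 14 libraries, and position 29, base 5 of the first Ter, held 16 from 9 libraries. Base 5 is where the AGTA shared with the bait begins.

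Position 65, base 13 of the second Ter, held 16 members, position 93, base 13 of the third Ter, 15 members, and position 37, base 13 of the first Ter, 13 members. Base 13 is where the GTAACT shared with the bait begins. Base 15, where AACTA begins, held 13 members over all elements and was not among the most used. The other 4 of the 10 positions were 89 (base 9 of the third Ter, 15 members), 55 (base 3 of the second, 14 members), 80 (the last base before the third Ter, 14 members) and 83 (base 3 of the third, 13 members).

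Over all 6 elements, base 5 held 67 members and base 13 held 44, against 5 to 30 at each of the other 21 bases. Joins at base 5 came from 20 libraries and those at base 13 from 18. Of the joins at base 5, 77.6% had microhomology of at least 2 bp, and of those at base 13, 90.9%. Of the 403 members elsewhere, 27.0% had it. Listed positions nearly always count shared bases as array DNA, so a join sharing AGTA or GTAACT is listed at base 5 or 13. Bases 5 and 13 were also picked from these same counts. The contrast with the other members was therefore partly fixed by the way joins are listed. In BRCA1del cells 11.8% of members began at base 5 and 6.97% at base 13, and in BRCA1flox cells 16.3% and 12.8%. Leftward joins also stood above their neighbours at base 5, with 167 joins against 123 at base 4 and 57 at base 6, but held more at bases 2, 18, 19, 20, 21 and 23. At base 13 they numbered 89, against 167 at base 12 and 140 at base 14.

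**Figure D3:**
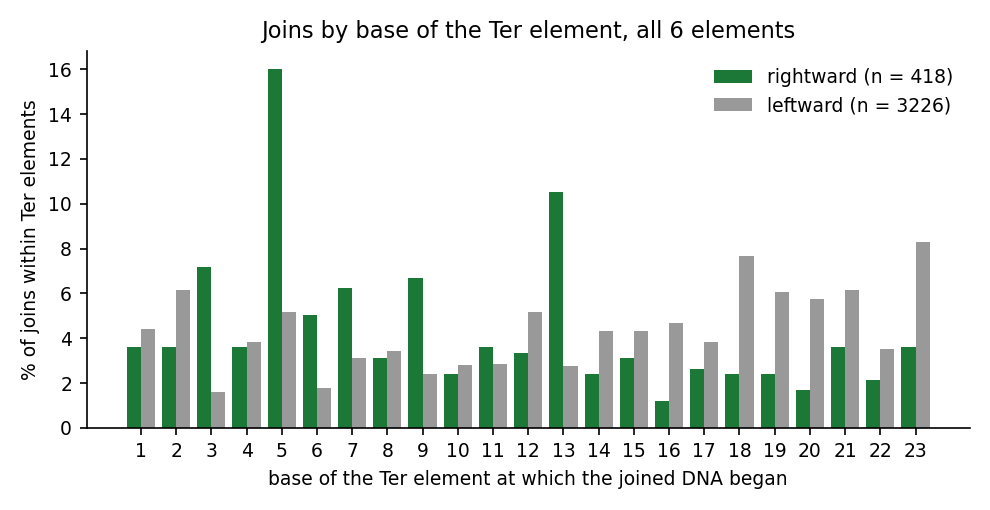
Share of joins within Ter elements (vertical axis, %) that began at each of the 23 bases of the element (horizontal axis), over all 6 elements and 8 Tus groups, for rightward (green, 418) and leftward (grey, 3226) joins. The rightward bars at base 5 (67 joins) and base 13 (44 joins) stand above the rest; the grey bars also rise at base 5 above bases 4 and 6 (167 against 123 and 57 joins) but not at base 13 (89 joins).

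Most distinct rightward joins were found in 1 library, and a minority recurred in at least 2. A join was counted by its position in the repeat, its bait end and its number of shared or inserted bases. Both repeats were folded onto 1, so a recurrent join may lie in different repeats. Counted in this way, the 514 members made up 334 distinct joins. Of these, 258 were in 1 library and 76 in at least 2, and the recurrent joins held 255 members (49.6%).

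The structure of the junction was called for all 521 members. In the 8 Tus groups, 201 of 514 (39.1%) had microhomology of at least 2 bp, 145 (28.2%) shared 1 base, 91 (17.7%) were blunt and 77 (14.98%) had an insertion. Insertions had a median length of 2 bases and a longest of 56. The longest microhomology was 6 bp.

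The lengths of the shared sequence differed in form between the orientations. Among rightward joins, 74 shared 2 bp (14.4%), 46 shared 3 bp (8.95%), 35 shared 4 bp (6.81%), 9 shared 5 bp (1.75%) and 37 shared 6 bp (7.198%), with none at 7 bp. Among leftward joins, 2-bp sharing was the most frequent class of microhomology (985, or 22.4%), 6 bp was shared by 2 joins (0.0455%) and 7 bp by 72 (1.64%). In the leftward direction the longest run that Ter shares with the bait end is TTTAGTT, which ends 32 bases before the end of the bait.

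**Figure D4:**
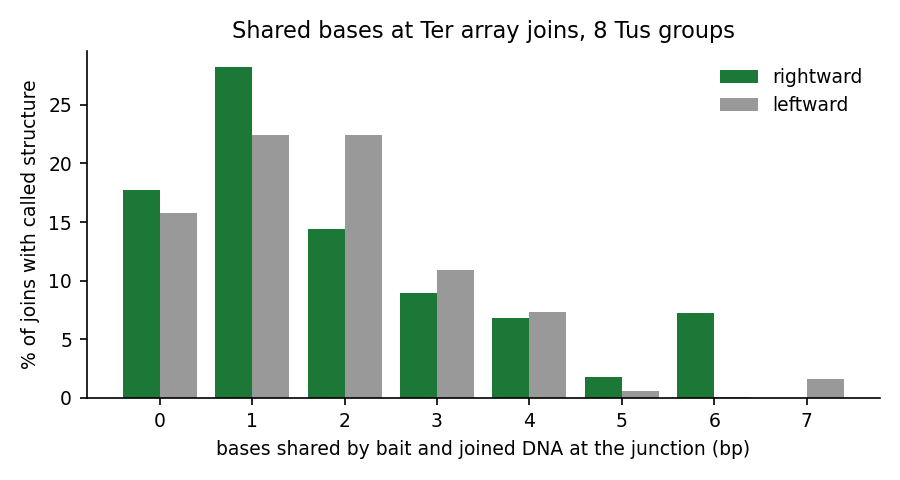
Share of joins with called structure (vertical axis, %) by the number of bases shared by bait and joined DNA (horizontal axis, bp), for rightward (green, 514 joins) and leftward (grey, 4397 joins) array joins of the 8 Tus groups; joins with an insertion are in the denominator but have no bar. The rightward bar at 6 bp (7.198%) has almost no leftward counterpart, and the leftward bar at 7 bp (1.64%) no rightward counterpart.

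Of the rightward joins, 127 (24.7%) shared at least 3 bp, and they used 19 different words. GTAACT was used in 36 joins from 18 libraries and AGTA in 29 joins from 11 libraries, most often with 4 and 7 bases lost from the bait. AGT followed with 17 joins, TAA with 12 and AACTA with 8. GTAACT made up 5.09% of the members in BRCA1del cells (19 joins) and 12.1% in BRCA1flox cells (17 joins), and AGTA 4.56% (17 joins) and 8.51% (12 joins). The 8 joins with AACTA, from 5 libraries, were all in BRCA1del cells, which held 373 of the 514 members, and no difference between genotypes was tested for any word.

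The genotypes were compared for structure over libraries with at least 5 rightward joins, 11 BRCA1del against 8 BRCA1flox. Microhomology of at least 2 bp was found in 36.8% of rightward joins in BRCA1del and 46.3% in BRCA1flox, a difference of -9.46 points. Blunt joins made up 19.99% and 14.6%, a difference of 5.40 points, and insertions 11.97% and 18.4%, a difference of -6.45 points. None of the 3 passed the exact permutation test within siRNAs (two-sided, adjusted p = 0.227 for each, smallest unadjusted p = 0.179). These differences moved with single BRCA1flox libraries: microhomology to -3.40 or -15.5 points without run D or run C of the BLM siRNA, insertions to -2.38 without run C of the BLM siRNA and -10.6 without run C of the luciferase siRNA, and blunt joins to 3.39 without run B of the FANCM siRNA and 10.2 without run C of the luciferase siRNA. None passed after adjustment in those fits (adjusted p = 0.069 to 0.549, exact permutation test).

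The call for microhomology changed with the minimum length. From 3 bp up, the share was 19.4% in BRCA1del and 40.1% in BRCA1flox, a difference of -20.7 points that passed the exact permutation test (adjusted p = 0.003). Library by library it was 9.09% to 38.2% in BRCA1del (median 17.6%, n = 11) and 20% to 72.7% in BRCA1flox (median 36.04%, n = 8), with overlap. From 4 bp up, it was 11.8% and 25.1% (difference -13.2 points, adjusted p = 0.0075, same exact test). From 1 bp up, it was 68.0% and 67.0% (difference 1.06 points, adjusted p = 0.851, same exact test). Leftward array joins had a difference in the same direction, with 16.98% of pooled joins in BRCA1del and 24.8% in BRCA1flox at 3 bp or more, and 8.30% and 11.2% at 4 bp or more. Rightward joins pooled in the same way gave 20.6% and 35.5% at 3 bp or more, and 12.9% and 23.4% at 4 bp or more. Whether the genotype difference was larger for rightward joins was not tested.

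Rightward and leftward array joins of the same library were then compared in 19 libraries, with p-values from sign-flip permutation tests adjusted over 4 measures. Microhomology of at least 2 bp was found in 40.5% ± 14.02 (SD) of rightward and 43.5% ± 7.85 of leftward joins. Blunt joins made up 16.9% ± 9.20 and 15.7% ± 6.29, and insertions 15.5% ± 9.38 and 17.7% ± 5.97. None of the 3 differed beyond the spread between libraries (adjusted p = 0.434 for microhomology, 0.583 for blunt joins and 0.434 for insertions, permutation test). Here too the minimum length mattered. From 3 bp up, microhomology was 7.33 points more frequent in rightward joins (27.4% against 20.1%, adjusted p = 0.044, permutation test), and from 4 bp up 7.75 points (17.3% against 9.54%, adjusted p = 0.00218, higher in 16 of 19 libraries).

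Rightward joins kept more of the bait end. The median number of bases lost from the bait was 6 (interquartile range 1 to 16) for rightward and 12 (3 to 30) for leftward joins. The complete bait end was kept in 111 of 514 rightward joins (21.6%) and 12.03% of leftward joins, and more than 20 bases were lost in 15.4% and 34.6%. Per library, the rightward median was 3.5 to 16 bases and the leftward median 8 to 16.5 bases.

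The mean of these medians was 6.21 bases for rightward and 11.7 for leftward joins, a difference of -5.45 bases that passed the permutation test (adjusted p = 0.0014, SD 4.84, n = 19). The rightward median was the lower in 17 of 19 libraries. The exceptions were run C of BRCA1del with the FANCM siRNA (16 against 10 bases) and run D of BRCA1flox with the BLM siRNA (13 against 9 bases). Among reads placed by the alignment rule the difference was -3.26 bases and did not pass (adjusted p = 0.498, permutation test).

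**Figure D5:**
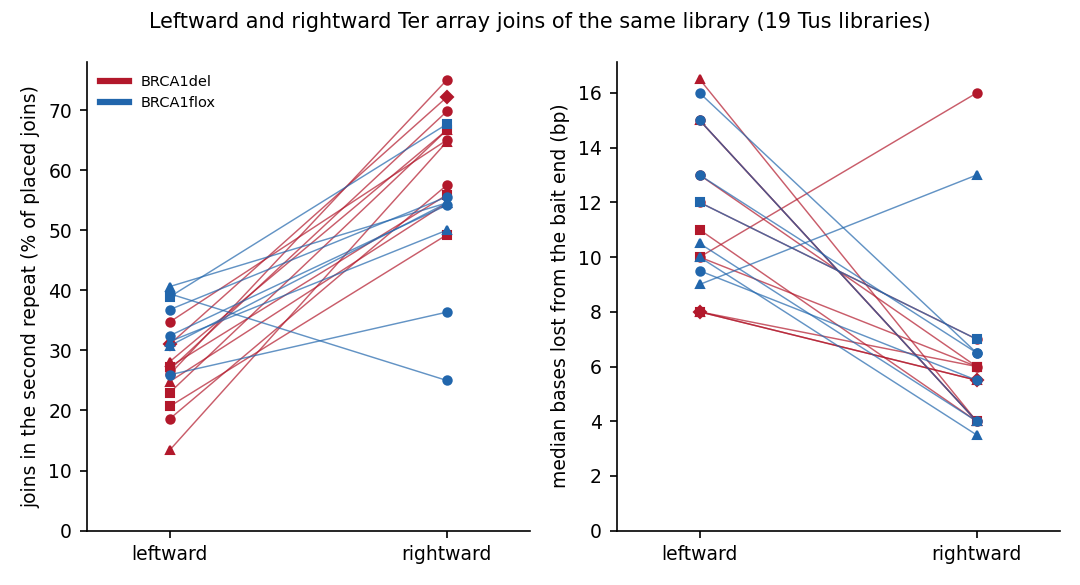
Left, share of placed array joins in the second repeat (%); right, median bases lost from the bait end (bp); each line joins the leftward and the rightward joins of 1 library, for 19 Tus libraries, coloured by genotype with the run as marker shape. The share in the second repeat is higher for rightward joins in 18 of 19 libraries, and the bait loss lower in 17 of 19.

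The position of a shared word in the bait sets how many bases a microhomology join has lost, so bait loss was also described by structure. Rightward joins with microhomology of at least 2 bp had lost a median of 7 bases, those with 1 shared base 3, blunt joins 1 and joins with an insertion 4. The leftward medians were 17, 8, 7 and 9 bases in the same order. Of the blunt rightward joins, 43 of 91 (47.3%) used the complete bait end, against 25.3% of blunt leftward joins. Leaving out microhomology of at least 2 bp, the rightward median was the lower in 15 of 17 libraries, by 4.88 bases on average. Lower bait loss was thus measured in each of the 4 structures.

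Rightward joins to the cassette left of the array, which have the same orientation but no Ter element, were the last comparison. Over 17 libraries with at least 5 joins of each kind, microhomology of at least 2 bp was found in 41.0% ± 14.4 (SD) of rightward array joins and 53.8% ± 14.9 of rightward joins left of the array. The difference of -12.8 points had an adjusted p of 0.0536 over the 3 structures (two-sided sign-flip permutation test) and so did not pass. Without run C it was 0.0841 points (adjusted p = 0.973, exact permutation test), so it rested on that run, while without run A, run B or run D alone it was -14.3 to -16.8 points and passed. It also passed without single libraries, at -13.7 and -13.9 points without run B or run D of BRCA1del with the BRCA1 siRNA, at -14.3 without run A of BRCA1del with the FANCM siRNA and at -15.4 without run D of BRCA1flox with the BLM siRNA (adjusted p = 0.0488, 0.0442, 0.0321 and 0.00621, permutation test). Blunt joins made up 17.5% and 12.4% (adjusted p = 0.162) and insertions 15.3% and 16.9% (adjusted p = 0.576), by the same permutation test. Without run B the blunt difference of 5.03 points became 8.30 and passed (adjusted p = 0.037, permutation test).

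The edges of the region were sparsely used on its left and more densely on its right. In the 8 Tus groups, 3 rightward joins lay in the first 10 positions inside the left edge and 7 in the 10 positions before it. There were 21 in the last 10 positions inside the right edge and 14 in the 10 positions beyond it, so the right edge of the region is not an edge in the data.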

How the data were processed

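Junctions from 25 libraries in 10 groups were read from 10 deposited tables, 1 per group, with 1 line per junction. Per the file headers, the authors list for each the junction position and strand, where its alignment starts and ends, and the read's name and bases. These values are other than counts or levels: they are positions on a cassette reference, not coordinates of a genome build. The submitters' processing notes name Bowtie2 as a tool and mm9 as a build. Filters and removal of duplicates are not given in the sources used here.

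A library was a sequencing run within a group, taken from the read name. Run C held 10 groups, run D 8, run B 4 and run A 3, and no table ties a run to a labelled replicate. In each run and group, at least 98.2% of reads carried 1 barcode. The cassette and the bait end were rebuilt from the reads by voting. Between the repeats, the deposited coordinates hold 1 position more than the reads do (2630 of 2729 joins to the right of it carry the shift). Bait and joined DNA were extended from exact seeds of 10 and 12 bases, and bases covered by both were called microhomology, counted from 2 bp.

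Tested on simulated array joins, the caller returned the exact structure for 100% of 2000 error-free reads and for 94.5% of 2000 reads carrying 0.3% wrong bases. The caller was given the exact start of the joined DNA, which makes the error-free result nearly certain beforehand. Simulated bait losses and inserts were shorter than the longest among rightward joins (114 and 56 bases). Placement to a repeat was not simulated. For the genotype comparison of the rightward share, 6% of 100 simulated data sets without a difference and 97% of 100 with a difference of 6 points were called. The simulated libraries had an SD of 3 points in every group, against 0.244 to 7.55 points in the Tus groups. The largest SDs were those of the FANCM siRNA, 7.55 in BRCA1del and 4.00 in BRCA1flox. The 97% is therefore not the power of the test on these data. Tests were exact permutations of libraries within strata, or sign flips within libraries (100000 resamples from 10 libraries up), two-sided, with Benjamini-Hochberg adjustment in each family and a threshold of 0.05. Python 3.11.15, numpy 2.4.6, pandas 2.3.3, scipy 1.17.1 and statsmodels 0.14.6 were used. The printed examples, the positions (the 10 most used) and the words (the 5 most frequent of at least 3 bp) followed a written rule. Members, lists and tests were chosen with earlier results of these data known. The 3 tests on the second repeat and on the share within Ter were added after the joins had been placed.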

Additional observations from a re-analysis of the deposited data

Results flagged for a closer look

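With the FANCM siRNA, the rightward share differed from luciferase in opposite directions in the genotypes when libraries of the same run were compared. Against the luciferase siRNA, BRCA1del cells were lower in both shared runs, by -5.54 points on average, and BRCA1flox cells were higher in both, by 5.56 points. The difference between the genotypes was not tested. The BRCA1del library of run A, at 18.2%, has no luciferase library in its run and is not in this comparison. Run D of that group held 3 rightward joins. The BRCA1flox luciferase libraries of runs C and D held 8 and 2. In BRCA1flox cells the BLM and BRCA1 siRNAs also lay above luciferase, by 6.73 and 8.10 points.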

How the results depend on the processing

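The values below changed direction or their side of the threshold. Other alternatives did not, but several could not: a left-out library may lie outside a comparison, and without run C or D the siRNA comparisons cannot pass. Without run B the smallest p of the exact permutation test is 0.0556 for the BLM and BRCA1 siRNAs, so these cannot pass either. Only reads placed by the alignment rule moved the siRNA differences to 3.21 points (BLM) and 4.69 (BRCA1), which then passed. It moved bait loss to -3.26 bases, microhomology against joins left of the array to -14.1 points (passed), the genotype difference in the second repeat to -2.87 points and the excess within Ter to 2.79 points. Reads placed by sequence or rule gave -12.9 points for microhomology against joins left of the array (passed). Microhomology from 1 bp gave 1.06 points between genotypes and 0.999 between orientations, from 3 bp -20.7 and 7.33, and from 4 bp -13.2 and 7.75, with 6.57 against joins left of the array. The cause of these shifts was not tested.

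Leaving out each run or each of the 21 Tus libraries (the latter added after the data were seen) gave -16.8 to 0.0841 points for microhomology against joins left of the array, and 1.68 to 8.30 for blunt joins there. Between orientations, microhomology ran from -6.24 to 0.378 points and blunt joins from -1.92 to 3.19. The genotype difference in the second repeat ran from 10.04 to 21.3 points and that in the rightward share from 4.92 to 6.74, which passed each time.

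No paired analysis was possible by the labels' replicate numbers because the tables carry none. With the run as replicate block, the genotype difference in rightward share was 5.66 points, that of the BLM siRNA 6.20, the BRCA1 siRNA 5.99 and the FANCM siRNA 0.0108, and the second-repeat difference 20.5. For the siRNAs the smallest p under the block is 0.0625 (BLM, BRCA1) or 0.125 (FANCM), so those cannot pass, and both genotype differences passed with the block. The Tus libraries with only 2 and 3 rightward joins gave no shares of structure or repeat, and shares from 8 to 14 joins in others are coarse.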
